A study of Homo sapiens with 4 samples.

Results

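The 10 genes described here form the core of the circadian clock, the transcriptional feedback loop that gives cells a daily rhythm. They were chosen by name as clock genes, found by symbol in the 4 deposited expression tables, and comprise the activators ARNTL (also called BMAL1) and CLOCK, the inhibitors PER1, PER2, PER3, CRY1 and CRY2, the REV-ERB repressors NR1D1 and NR1D2, and the output factor DBP. All 10 were found among the 16878 genes listed, and all 10 were among the 12191 genes whose mean reached 1 FPKM (fragments normalised to the length of the transcript and to the size of the library). PANC-1, an established line from a human pancreatic ductal carcinoma, was sequenced as 2 Control libraries and 2 libraries labelled siSIRT1, the latter from cells given a small interfering RNA (siRNA) against SIRT1. RNA was taken 48 h after transfection. The labels say no more of the Control than its name. They give the libraries of a group numbers but do not state separate cultures, so the p-values below measure the spread between these libraries, which may be technical. PANC-1 is a tumor line grown without any stated synchronization, and a single time point holds no rhythm, so the values are levels averaged over the cells.

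In the clock, ARNTL pairs with CLOCK and binds E-box sequences in promoters, switching on the PER, CRY, NR1D and DBP genes. PER and CRY proteins then accumulate and inhibit the ARNTL-CLOCK pair, whereas the REV-ERB proteins bind ROR elements and repress ARNTL transcription. SIRT1 is an NAD-dependent deacetylase known to act on the ARNTL and PER2 proteins, and its cofactor depends on NAMPT, itself a clock output. The comparison of siSIRT1 with Control therefore addresses whether transcripts of the activator arm or of the repressor arm changed when SIRT1 was lowered.

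SIRT1 itself (Entrez 23411, chr10:69644414-69678147) was at 10.46 and 10.25 FPKM in Control, against 1.8 and 2.05 FPKM in siSIRT1, which was 18.6% of the Control mean (log2 fold change -1.96 ± 0.11 SE, limma adjusted p = 1.33e-05). The libraries held an estimated 8800000 to 9180000 reads, so a clock gene rested on between 82 and 436 estimated reads per library. These estimates use the canonical transcript length and cover counting error only. Keratins KRT8, KRT18 and KRT19, which mark the epithelial line, were at 312.8 FPKM or more in every library, while KRT7 was at 2.89 to 4.04 FPKM. KRT18 and KRT19 were called higher in siSIRT1 (log2 fold changes 0.26 and 0.25, limma adjusted p = 0.035 and 0.0178), and both calls were lost under median-of-ratios scaling, without the filter on low values, without the variance trend and without either Control library. VIM, an intermediate filament of mesenchymal cells that PANC-1 also makes, was at 2198 and 2049 FPKM in Control, against 1503 and 1427 FPKM in siSIRT1 (-0.53, limma adjusted p = 0.00126), a call lost without Control replicate 1. Of 15 markers of acinar, endocrine, blood, endothelial and fibroblast cells, 10 were listed and 8 of these lay under the mean of 1 FPKM. PTPRC, a blood marker past the filter, was at 1.21 and 1.22 FPKM in Control, against 0.97 and 1.29 FPKM in siSIRT1, without a call. CD68, a lysosomal protein of macrophages that many cultured lines also express, accounted for nearly all of the marker sum, which was 65.1 and 62.9 FPKM in Control, against 44.1 and 41.2 FPKM in siSIRT1, and CD68 was called lower (-0.59, limma adjusted p = 0.0003). The part of either set of markers in the results below was not tested. Fewer cells with a transcript and less of it per cell cannot be told apart in these bulk samples.

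Promoter sequences of all 10 genes were read from RefSeq and searched for the elements through which the loop acts. Each window ran from 250 bases before to 50 bases after a start site, and the 10 genes had 15 windows. The letters searched on both strands were the E-box CACGTG, its variant CACGTT, the D-box TTATGTAA or TTACGTAA (the site of DBP and its relatives), the ROR element core TAGGTCA and the cAMP response element TGACGTCA. At least 1 of these was present in 9 of the 10 genes, against 24.1% of the 9984 tested genes that had a window. By window, at least 1 was present in 9 of the 15, against 16.2% of all 35116 windows. The letters were chosen as elements of the clock, so a share above that of other genes is no independent result. The stretches below are shown because they carry the E-box, D-box or ROR letters, in capitals, each with 11 bases on either side. They are written 5′ to 3′ on the strand of the gene. Binding of clock proteins to them was not measured. They come from the RefSeq table of GRCh38.p14 and were located by exact match in GRCh37, whose coordinates are given.
CLOCK, E-box variant, chr4:56412270-56412297, minus strand: caccactcgggCACGTTtggagcagcgc
PER1, E-box, chr17:8055879-8055906, minus strand: gcacccaggtcCACGTGcgcccgtgtgt
PER2, E-box variant, chr2:239197432-239197459, minus strand: gcgcgcgcggtCACGTTttccactatgt
PER3, D-box, chr1:7844163-7844192, plus strand: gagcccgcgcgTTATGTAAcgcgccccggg
CRY1, E-box variant, chr12:107487400-107487427, minus strand: cacacttcagaAACGTGaggtgccggtg
CRY2, E-box variant, chr11:45868827-45868854, plus strand: cacatggtaggAACGTGagggggcgggc
CRY2, ROR element core, chr11:45868950-45868978, plus strand: ttgcggcgtcaTAGGTCActgggcgggct
NR1D1, E-box variant, chr17:38256994-38257021, minus strand: cgcaagagctcAACGTGccggctgttgg
NR1D2, D-box and 2 E-boxes, chr3:23987407-23987523, plus strand: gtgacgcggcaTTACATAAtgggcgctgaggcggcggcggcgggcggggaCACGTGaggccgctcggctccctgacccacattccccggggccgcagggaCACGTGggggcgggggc

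The stretches of PER3, CRY1 and NR1D1 lay upstream of every annotated transcript of their gene. Those of CLOCK, PER1 and NR1D2 lay in introns of longer transcripts. The PER2 stretch was exonic throughout and those of CRY2 in part, counting exons of any gene on either strand. Which gene these exons belong to was not determined. The E-box was found in PER1 and NR1D2, which is 2 of 10 genes, against 12.7% of tested genes (7.26% of all windows). Its variant was found in 5 genes (CLOCK, PER2, CRY1, CRY2 and NR1D1), against 7.82% of tested genes (5.34% of all windows). The D-box was found in 3 genes (PER2, PER3 and NR1D2), against 0.911% of tested genes (1.01% of all windows). ARNTL held the ROR core from 31 to 37 bases past its start site, and CRY2 held it upstream, against 1.73% of tested genes (1.85% of all windows). In PER2 the D-box spanned the start site itself, from 3 bases before it to the 5th base of the transcript. No member held the cAMP response element, which was in 3.81% of tested genes (1.85% of all windows), and the DBP window held none of the letters searched. No matches overlapped one another within these windows. A match is a description of the sequence, and its absence says only that the letters are not in the window.

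The siRNA strand that the study lists for SIRT1 was matched to the clock transcripts as well, because a short match to its guide strand is a sequence feature that any gene might carry. The guide, made here as the complement of the listed strand with its seed (bases 2 to 8) in capitals, is shown with that strand.
Listed strand: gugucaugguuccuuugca
Guide: uGCAAAGGaaccaugacac
Of the canonical transcripts, SIRT1 alone held the full 19-base site. The seed match CCUUUGC was present in the 3′ UTR of PER2 and of no other clock gene, that is in 1 of 10, and in 15.6% of the 11932 tested genes with an annotated 3′ UTR.

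The clock genes were weakly to moderately expressed. On the FPKM scale, which is per transcript length, the Control means ran from PER1 at 9.41 FPKM, through DBP (7.8), CRY1 (7.03), PER2 (5.73) and NR1D1 (5.49), to a group between 3.38 and 3.6 FPKM made of CLOCK, CRY2, NR1D2, ARNTL and PER3. Neighbors in this order overlapped between their 2 Control libraries, except that PER1 stood above DBP, CRY1 above PER2 and NR1D1 above CLOCK. The median tested gene had a mean of 10.34 FPKM, above all 10 clock genes, and 15.8% of tested genes lay below the lowest of them.

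With SIRT1 lowered, a change past the threshold was seen in 1 of the 10 genes, the inhibitor CRY2, which rose. With an adjusted p under 0.05 by limma, 37.1% of the 12191 genes tested were called, 24% as higher and 13.1% as lower in siSIRT1. Rises made up 64.8% of those calls, and 49.6% after median-of-ratios scaling. Since weakly expressed genes are measured less precisely, the 4042 genes with means between those of the lowest and highest clock gene (2.98 to 10.02 FPKM) are also given, and 26.4% of them were called. The share of the clock genes, 10%, was below both, but it is 1 gene of 10. Over the alternative fits with all 4 libraries the count ran from 0 to 2. So few genes cannot tell this share from the other shares. The 2 groups of libraries did not overlap in 6 of the 10 genes, against 69% of all genes tested and 62.4% of genes at the same level. The mean was higher in siSIRT1 for 4 of the clock genes and lower for 6, with a median log2 fold change of -0.04, while the median over all genes tested was 0.07. Over the 4042 genes at the same level the median was 0.05. The median size of the change, without its sign, was 0.20 on the log2 scale for the clock genes, 0.20 for genes at the same level and 0.21 for all genes. Each fold change is on the log2(FPKM + 1) scale, which understates changes of genes at these levels. None of the 10 changed direction with a pseudocount of 0.1, quantile normalization, median-of-ratios scaling or scaling to equal sums.

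**Figure D1:**
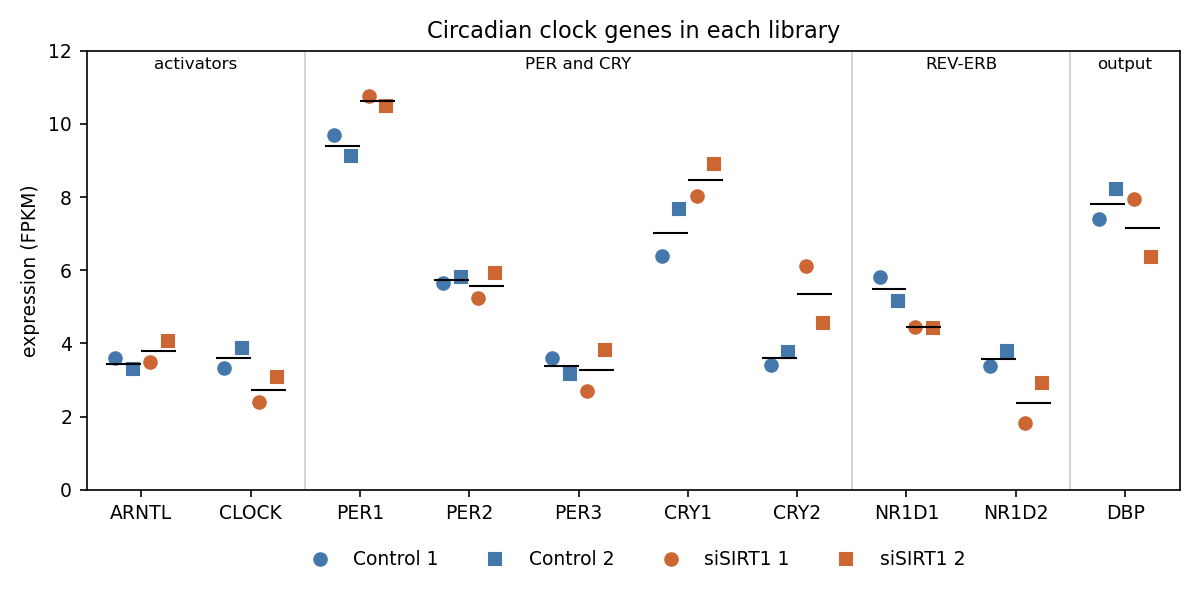
Expression of the 10 clock genes in each library. The vertical axis is FPKM; blue marks are Control and orange marks siSIRT1, circles are replicate 1 and squares replicate 2, and black lines are group means. Both siSIRT1 libraries lie above both Control libraries for PER1, CRY1 and CRY2, and below them for CLOCK, NR1D1 and NR1D2.

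Of the activators, neither passed the test. ARNTL (Entrez 406, chr11:13298199-13408813, plus strand), the partner that carries the rhythm of the pair, was at 3.6 and 3.29 FPKM in Control, against 3.49 and 4.07 FPKM in siSIRT1. The libraries of the 2 groups overlapped, with siSIRT1 replicate 1 between the Control libraries. Its log2 fold change was 0.10 ± 0.13 SE with a 95% confidence interval from -0.18 to 0.39 (limma adjusted p = 0.56), so neither a fall of 0.18 nor a rise of 0.39 could be told from no change. Without siSIRT1 replicate 2 the log2 fold change was 0.015, and without siSIRT1 replicate 1 it was 0.19. ARNTL rested on the fewest reads of the 10 genes, an estimated 82 to 99 per library.

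CLOCK (Entrez 9575, chr4:56294070-56413076, minus strand), the other partner and itself an acetyltransferase, was at 3.33 and 3.86 FPKM in Control, against 2.39 and 3.08 FPKM in siSIRT1. Both siSIRT1 libraries were below both Control libraries, replicate 1 by more, and the mean was 76.1% of Control. The log2 fold change of -0.30 ± 0.14 SE (95% confidence interval -0.63 to 0.02) did not pass the threshold (limma adjusted p = 0.127). It was -0.17 without siSIRT1 replicate 1 and -0.44 without siSIRT1 replicate 2. The ratio of ARNTL to CLOCK was 1.08 and 0.852 in Control, against 1.46 and 1.32 in siSIRT1, without overlap. With 2 libraries per group an exact permutation test cannot go below p = 0.333, so this ratio and the sums and shares below are given as values without a test.

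The PER genes, whose proteins enter the nucleus with CRY to stop the activators, were not called in either direction. PER1 (Entrez 5187, chr17:8043790-8059824, minus strand), the most abundant of the 10 and also an acute target of glucocorticoid and cAMP signals, was at 9.69 and 9.12 FPKM in Control, against 10.77 and 10.49 FPKM in siSIRT1. The groups did not overlap, but the shift was small, with a log2 fold change of 0.16 ± 0.09 SE (95% confidence interval -0.05 to 0.37, limma adjusted p = 0.2). PER2 (Entrez 8864, chr2:239152685-239198743, minus strand), whose protein is a known substrate of SIRT1, was at 5.65 and 5.81 FPKM in Control, against 5.23 and 5.92 FPKM in siSIRT1. The siSIRT1 libraries of PER2 enclosed the Control libraries, and the interval of the log2 fold change, -0.29 to 0.22, held no fall or rise beyond those bounds (-0.04 ± 0.11 SE, limma adjusted p = 0.829). PER3 (Entrez 8863, chr1:7844351-7905237, plus strand), the least abundant PER gene and one not needed for the loop to cycle, was at 3.6 and 3.15 FPKM in Control, against 2.71 and 3.82 FPKM in siSIRT1. It too enclosed the Control values, with a log2 fold change of -0.05 ± 0.15 SE (95% confidence interval -0.40 to 0.30, limma adjusted p = 0.836). Of the exonic bases of PER3, 13.6% lie on the strand opposite to exons of UTS2. The direction of PER2 and PER3 turned when siSIRT1 replicate 1 was left out (log2 fold changes 0.04 and 0.14), and that of PER3 also without Control replicate 1 (0.027).

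Taking the PER genes as a pool, PER1 made up 51.2% and 50.4% of the summed PER FPKM in Control, against 57.6% and 51.9% in siSIRT1. The share of PER2 was 29.8% and 32.1% in Control, against 27.9% and 29.3% in siSIRT1, and the shares of PER3 overlapped between the groups. The whole PER pool was at 18.9 and 18.1 FPKM in Control, against 18.7 and 20.2 FPKM in siSIRT1, so the groups overlapped in the sum.

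Among the cryptochromes, the strongest transcriptional inhibitors of the loop, CRY2 rose and CRY1 did not pass the test. CRY1 (Entrez 1407, chr12:107385142-107487327, minus strand) was at 6.38 and 7.68 FPKM in Control, against 8.03 and 8.9 FPKM in siSIRT1. Its groups did not overlap, although the Control libraries were far apart and the upper one lay close to the lower siSIRT1 library. The log2 fold change was 0.24 ± 0.12 SE with a 95% confidence interval from -0.03 to 0.51 (limma adjusted p = 0.139), and it was 0.12 without Control replicate 1 and 0.36 without Control replicate 2. CRY2 (Entrez 1408, chr11:45868669-45904799, plus strand) was at 3.42 and 3.77 FPKM in Control, against 6.11 and 4.57 FPKM in siSIRT1. Both siSIRT1 libraries were higher than both Control libraries, and siSIRT1 replicate 1 was the higher of the pair. The mean reached 148.5% of Control, and the log2 fold change of 0.45 ± 0.14 SE (95% confidence interval 0.13 to 0.78) passed the threshold (limma adjusted p = 0.0356). These values rest on an estimated 125 and 140 reads in Control, against 218 and 166 reads in siSIRT1.

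The call of CRY2 was narrow. Adjusted p-values over the fits with all 4 libraries ran from 0.0134 to 0.116, and the call was lost without the filter on low values and under quantile, median-of-ratios and equal-sum scaling. Without siSIRT1 replicate 1 the log2 fold change fell to 0.28 (adjusted p = 0.145), and the call was also lost without Control replicate 1 (adjusted p = 0.155) or Control replicate 2 (adjusted p = 0.0744). The direction was upward in every one of these fits.

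In the summed CRY FPKM the groups were apart, at 9.8 and 11.4 FPKM in Control, against 14.1 and 13.5 FPKM in siSIRT1. The share of CRY1 in that sum was 65.1% and 67.1% in Control, against 56.8% and 66.1% in siSIRT1, so the shift toward CRY2 was seen in siSIRT1 replicate 1 and not in replicate 2.

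The REV-ERB repressors, nuclear receptors that bind heme and recruit NCOR1 with HDAC3 to the ARNTL promoter, were both lower in siSIRT1 without passing the test. NR1D1 (Entrez 9572, chr17:38249046-38256842, minus strand) was at 5.81 and 5.16 FPKM in Control, against 4.46 and 4.42 FPKM in siSIRT1. The siSIRT1 libraries were nearly equal and below both Control libraries, with a log2 fold change of -0.25 ± 0.11 SE (95% confidence interval -0.51 to 0.01, limma adjusted p = 0.117). NR1D1 shares 473 exonic bases, 18% of its exons, with the thyroid hormone receptor gene THRA on the opposite strand, and whether reads were assigned by strand is not stated. THRA was at 8.3 and 8.04 FPKM in Control, against 6.81 and 7.76 FPKM in siSIRT1, also lower, and reads from the shared bases may count toward either gene.

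NR1D2 (Entrez 9975, chr3:23986777-24022108, plus strand) had the largest fall of the 10 genes, from 3.37 and 3.79 FPKM in Control to 1.83 and 2.93 FPKM in siSIRT1. The groups did not overlap, and siSIRT1 replicate 1 was lower than replicate 2. The mean was 66.5% of Control and the log2 fold change was -0.46 ± 0.17 SE (95% confidence interval -0.84 to -0.07). That interval excludes 0 before adjustment, whereas the limma adjusted p over all genes was 0.0649 and missed the threshold. It passed under quantile normalization (adjusted p = 0.049) and median-of-ratios scaling (0.0371), and over all fits with 4 libraries the adjusted p ran from 0.0151 to 0.178. Without siSIRT1 replicate 1 the log2 fold change was -0.22, and without siSIRT1 replicate 2 it was -0.69 (adjusted p = 0.0121). The summed NR1D FPKM was 9.18 and 8.95 in Control, against 6.29 and 7.35 in siSIRT1, without overlap.

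DBP (Entrez 1628, chr19:49133287-49140636, minus strand), a PAR bZIP factor that carries the rhythm to D-box genes and is a direct readout of the ARNTL-CLOCK pair, was at 7.39 and 8.21 FPKM in Control, against 7.95 and 6.36 FPKM in siSIRT1. Its groups overlapped and the siSIRT1 libraries were farther apart than the Control libraries. The log2 fold change was -0.12 ± 0.12 SE (95% confidence interval -0.40 to 0.17, limma adjusted p = 0.501), and its direction turned without siSIRT1 replicate 2 (0.026). DBP shares 661 exonic bases, 30.5% of its exons, with SPHK2 on the opposite strand, which was at 7.91 and 7.84 FPKM in Control, against 9.05 and 8.4 FPKM in siSIRT1.

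**Figure D2:**
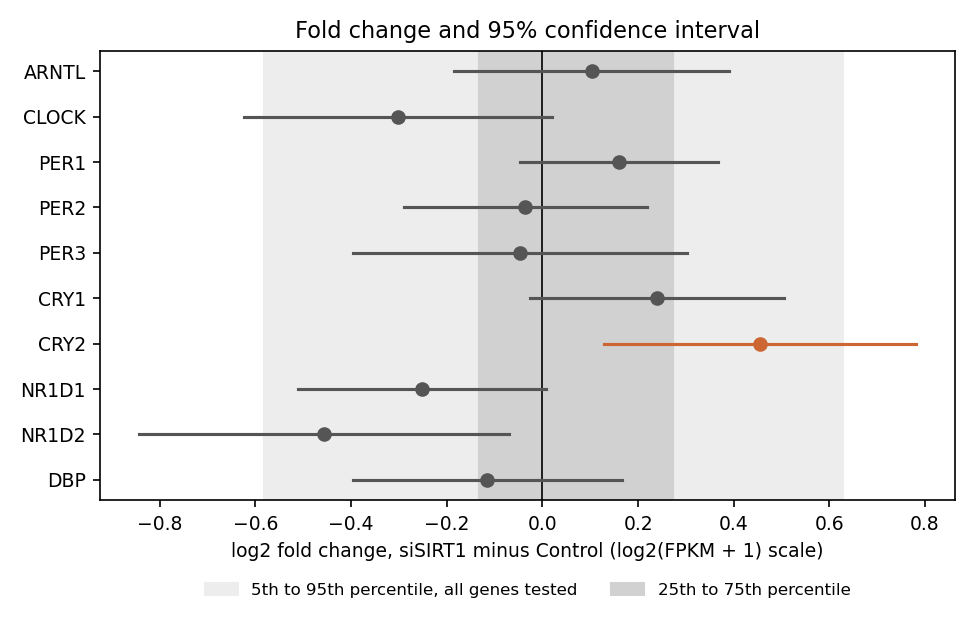
Log2 fold change (siSIRT1 minus Control, on the log2(FPKM + 1) scale) of each clock gene, as a point with its 95% confidence interval. The dark and light bands hold the middle 50% and 90% of all genes tested. CRY2, in orange, is the only one called at an adjusted p under 0.05, and all 10 points lie inside the light band, which runs from -0.58 to 0.63.

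The median log2 fold changes of the arms were set against each other without a test. In the activator arm, 0 of 2 genes were called by limma (0 also at an unadjusted p under 0.05, and 0 in each alternative fit with all 4 libraries), and the median log2 fold change was -0.10. With only 2 genes, that median is the midpoint of ARNTL (0.10) and CLOCK (-0.30), which lay on opposite sides of 0. The median of the activator arm was 0.011 without siSIRT1 replicate 1 and -0.21 without siSIRT1 replicate 2. In the repressor arm of 7 genes, 1 was called, as higher, and the median was -0.04. Within the repressor arm the PER and CRY genes had a median of 0.16 with 1 of 5 called, and the NR1D pair had a median of -0.35 with 0 of 2 called, so the near-zero median of the arm was made of members on both sides of 0. The median of the repressor arm was 0.14 without siSIRT1 replicate 1. The sum over all 10 genes was 52.2 and 53.8 FPKM in Control, against 53 and 54.6 FPKM in siSIRT1, and overlapped. CRY2 and NR1D2, the outermost genes in either direction, had nearly equal levels in Control. The CRY2 to NR1D2 ratio was 1.02 and 0.995 in Control, against 3.34 and 1.56 in siSIRT1. The pair was picked by its fold changes, so this ratio adds nothing to them.

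The siSIRT1 libraries differed more from each other than the Control libraries did, over the clock genes as over all genes. The libraries of a group differed by a median of 0.13 on the log2 scale in Control and of 0.22 in siSIRT1 over the clock genes, and by 0.08 and 0.12 over all 12191 genes tested. The siSIRT1 difference was the greater in 7 of the 10 clock genes and in 61.4% of all genes tested. In 6 of the 10 clock genes, and in 55.2% of all genes tested, siSIRT1 replicate 1 was farther from the Control mean than replicate 2.

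In contrast to the activators themselves, their paralogs both passed the test, in opposite directions. NPAS2, which can replace CLOCK as the partner of ARNTL and was by far the more abundant of that pair, was at 62.21 and 59.57 FPKM in Control, against 36.92 and 37.04 FPKM in siSIRT1 (log2 fold change -0.70 ± 0.06 SE, limma adjusted p = 9e-05). ARNTL2, which can replace ARNTL, was at 4.23 and 4.72 FPKM in Control, against 7.31 and 8.45 FPKM in siSIRT1 (log2 fold change 0.70 ± 0.12 SE, limma adjusted p = 0.00217). The groups were far apart for both, and both calls held in every fit run, those without 1 library included.

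CLOCK made up 5.08% and 6.08% of the summed CLOCK and NPAS2 FPKM in Control, against 6.08% and 7.68% in siSIRT1. That sum fell with NPAS2, from 65.5 and 63.4 FPKM to 39.3 and 40.1 FPKM, whereas the sum of ARNTL and ARNTL2 was 7.83 and 8.01 FPKM in Control, against 10.8 and 12.5 FPKM in siSIRT1. The ratio of the summed PER and CRY FPKM to these 4 activators was 0.392 and 0.413 in Control, against 0.656 and 0.64 in siSIRT1. With ARNTL and CLOCK alone as the activators, the ratio was 4.15 and 4.13 in Control, against 5.59 and 4.71 in siSIRT1. The groups did not overlap in either ratio, and the first contains the fall of NPAS2.

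**Figure D3:**
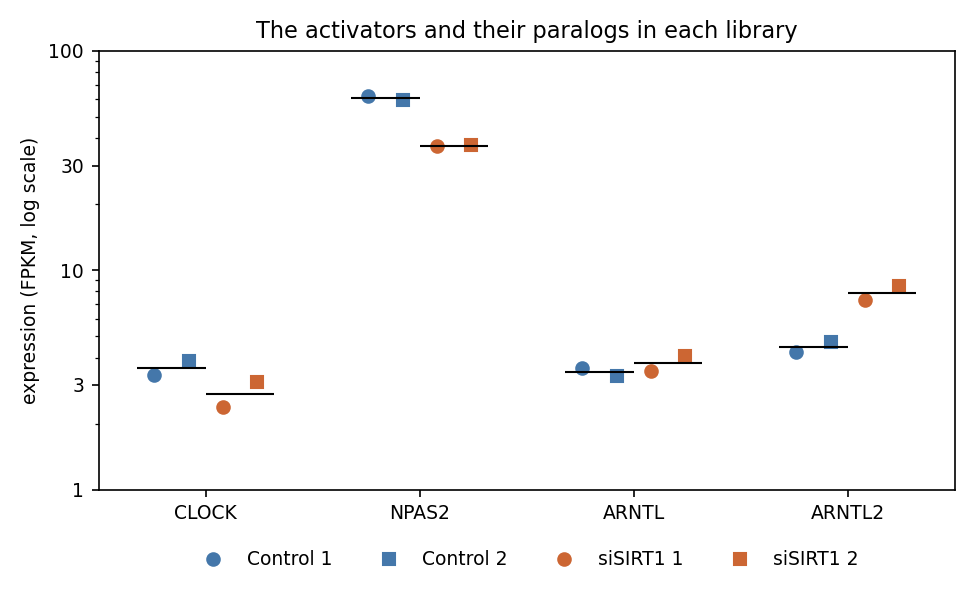
Expression of CLOCK, ARNTL and their paralogs in each library. The vertical axis is FPKM on a log scale, with marks and lines as for the 10 clock genes. The siSIRT1 libraries lie at 36.92 and 37.04 FPKM for NPAS2, below Control, and at 7.31 and 8.45 FPKM for ARNTL2, above Control.

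**Figure D4:**
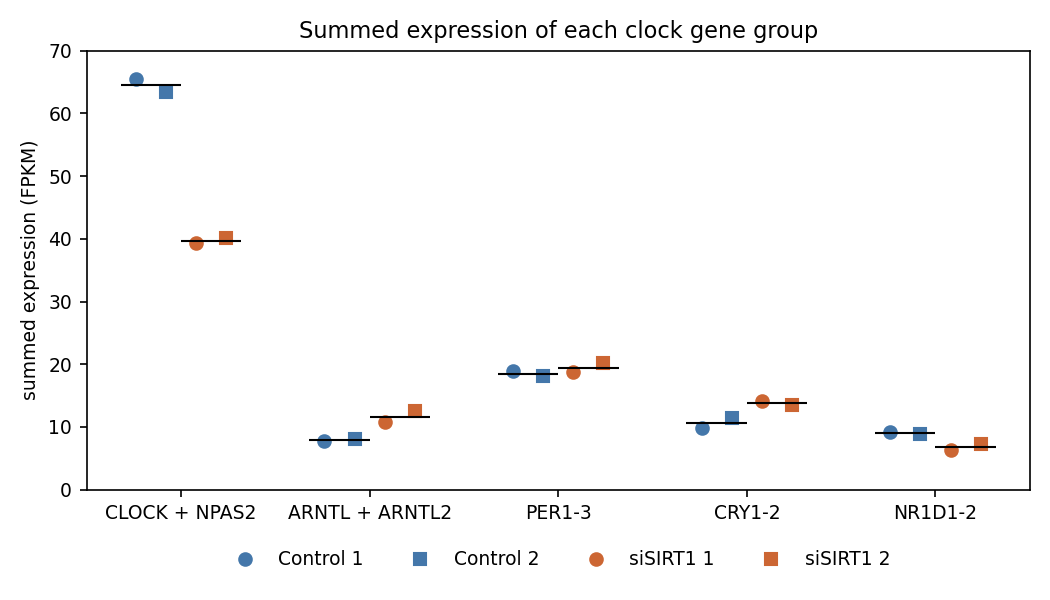
Summed FPKM of each group of clock genes in each library, with CLOCK and ARNTL pooled with their paralogs. Marks and lines are as for the single genes. The groups of libraries overlap for the PER sum and are apart for the other 4 sums.

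The wider pathway was then described over lists that name 48 further genes, of which 47 were in the tables and 42 were tested. Of these, 18 were called (42.9%), 8 as higher and 10 as lower, with a median log2 fold change of -0.03. The share over all genes tested was 37.1%, with 24% called higher and 13.1% lower in siSIRT1. The counts of the single lists below were not tested against these shares.

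Of the other repressors at E-boxes, BHLHE40 (DEC1) rose and BHLHE41 (DEC2) fell. BHLHE40 was at 38.46 and 41.97 FPKM in Control, against 54.91 and 56.88 FPKM in siSIRT1 (log2 fold change 0.47 ± 0.07 SE, limma adjusted p = 0.00105). BHLHE41 was at 9.78 and 8.79 FPKM in Control, against 7.25 and 7.19 FPKM in siSIRT1 (-0.32 ± 0.10 SE, limma adjusted p = 0.0344), a call lost without the filter on low values and when any one library was left out. CIART, which also represses through E-boxes, was at 0.21 and 0.06 FPKM in Control, against 0.65 and 0.99 FPKM in siSIRT1, under the filter and not tested in the main fit. RORA and RORB, receptors that compete with the REV-ERB proteins for the same sites, were at 0.4 FPKM or less in every library and were not tested in the main fit.

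Among the D-box factors, NFIL3, which represses the sites that DBP activates, fell from 7.42 and 7.33 FPKM in Control to 5.78 and 4.95 FPKM in siSIRT1 (log2 fold change -0.40 ± 0.11 SE, limma adjusted p = 0.0224). The call was lost without the filter on low values and without either Control library or siSIRT1 replicate 2. TEF, a relative of DBP, was tested without a call, and HLF was at 0.06 FPKM or less.

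The kinases and phosphatases that set the stability of PER and CRY proteins moved both ways. Of 12 genes, 3 were called higher and 3 lower, against 24% and 13.1% of all genes tested. CSNK1D, the kinase that marks PER for degradation, was at 62.78 and 61.73 FPKM in Control, against 71.93 and 70.04 FPKM in siSIRT1 (log2 fold change 0.19, limma adjusted p = 0.0343). CSNK2B, the regulatory subunit of casein kinase 2, had a log2 fold change of 0.21 and the phosphatase subunit PPP1CA of 0.32. In the other direction, CSNK1A1 (-0.41), GSK3B (-0.47) and the phosphatase subunit PPP1CC (-0.35) fell, with limma adjusted p-values of 0.00586, 0.0258 and 0.00489. Calls of CSNK1D and CSNK2B were lost under median-of-ratios scaling, without the variance trend and without either Control library, and that of CSNK1D also under quantile and equal-sum scaling and without siSIRT1 replicate 1. Leaving out Control replicate 2 ended the calls of PPP1CA and GSK3B, and leaving out siSIRT1 replicate 1 that of GSK3B. Without the filter on low values the calls of GSK3B and CSNK1A1 were lost (limma adjusted p = 0.102 and 0.0515).

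Of the ubiquitin ligases and the protease of the pathway, 1 of 5 tested rose and 1 fell. USP2, a protease that removes ubiquitin from clock proteins, was at 1.69 and 1.67 FPKM in Control, against 3.5 and 3.11 FPKM in siSIRT1 (log2 fold change 0.68 ± 0.13 SE, limma adjusted p = 0.00372). FBXW7, a ligase subunit that acts on NR1D1 protein, fell (-0.37, limma adjusted p = 0.0437), a call lost without the filter on low values and without either Control library or siSIRT1 replicate 1.

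Transcripts of NCOR1 and HDAC3, from the corepressor complex of the REV-ERB proteins, moved in opposite directions. NCOR1, a scaffold of it, was at 28.08 and 29.04 FPKM in Control, against 18.26 and 21.43 FPKM in siSIRT1 (log2 fold change -0.51 ± 0.09 SE, limma adjusted p = 0.00242). HDAC3, its deacetylase, was at 23.52 and 24.33 FPKM in Control, against 31.1 and 30.64 FPKM in siSIRT1 (0.35 ± 0.07 SE, limma adjusted p = 0.00391). The transcript of the scaffold thus fell and that of the enzyme rose, and both calls held in every fit run. The other 12 of the 14 corepressors and cofactors were not called.

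Of 6 clock-controlled output genes, 5 were tested and 3 called. NAMPT, the enzyme that makes the NAD precursor on which SIRT1 depends, fell from 12.37 and 11.86 FPKM in Control to 8.92 and 10.04 FPKM in siSIRT1 (log2 fold change -0.33 ± 0.10 SE, limma adjusted p = 0.027). PPARA, a lipid-sensing receptor, also fell (-0.38, limma adjusted p = 0.0408). Both of these calls were lost without the filter and without either Control library or siSIRT1 replicate 1. In contrast, CDKN1A, the cell cycle inhibitor p21, rose (0.33, limma adjusted p = 0.00357). KLF9, a clock- and glucocorticoid-driven factor, was at 1.28 and 1.31 FPKM in Control, against 0.44 and 0.54 FPKM in siSIRT1, and its mean lay under the filter, so it was not tested in the main fit. Over the 18 called genes of these lists, 8 were called in every fit run (NPAS2, ARNTL2, BHLHE40, CDKN1A, HDAC3, NCOR1, PPP1CC and USP2) and none changed direction. The share of all called genes that held in every fit was not counted, so 8 of 18 cannot be read as particular to these lists.

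**Figure D5:**
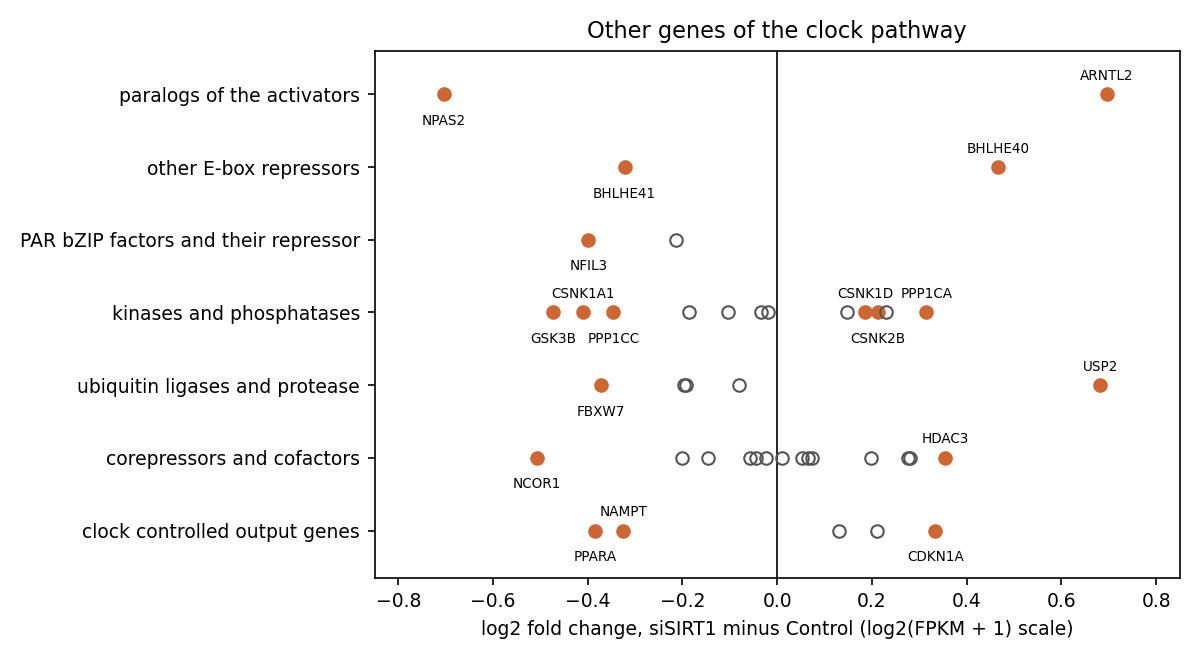
Log2 fold change (siSIRT1 minus Control, on the log2(FPKM + 1) scale) of the 42 tested genes of the wider clock lists, 1 row per list. Filled orange points with names passed an adjusted p under 0.05 and open points did not. The named points lie on both sides of 0, 8 to the right and 10 to the left.

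Genes that respond to serum, stress and hormone were described too, because PER1 answers to the same signals. Of 9 immediate early genes, 7 were tested. JUNB (log2 fold change 0.75), EGR1 (0.44) and NR4A1 (0.79) rose, with limma adjusted p-values of 0.000414, 0.0194 and 0.000868, and JUN fell (-0.66, limma adjusted p = 0.000681). Of 6 glucocorticoid response genes, 4 were tested, of which FKBP5 (0.32, limma adjusted p = 0.0448) and SGK1 (0.39, limma adjusted p = 0.0309) rose, while PER1 and TSC22D3 were not called. Over all genes tested, 24% were called higher and 13.1% lower in siSIRT1. The counts of these lists were not tested against those shares. The call of EGR1 was lost without either Control library. That of FKBP5 was lost when any one library was left out, under each scaling and without the filter. That of SGK1 was lost without either Control library or siSIRT1 replicate 2, under median-of-ratios and equal-sum scaling and without the filter. The part of either group of signals in the values of PER1 was not tested.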

How the data were processed

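RNA from 4 PANC-1 samples, 2 Control and 2 siSIRT1 as labelled, was sequenced by the study. The authors deposited FPKM values per gene and library, rounded to 2 decimals. The submitters' processing notes name Bowtie2, HISAT and RSEM for the study without assigning them to this assay, and the genome build and strand setting are not given in the sources used here. FPKM is scaled to each library's total, so large changes in abundant genes can shift all others. Identifiers were matched to RefSeq symbols (16846 of 16878).

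Genes whose mean reached 1 FPKM were tested two-sided with limma 3.58.1 (R 4.3.3), after adding 1 and taking log2, with eBayes allowing the variance to follow the mean, with Benjamini-Hochberg adjustment over 12191 genes and a threshold of 0.05. The fit was also run on simulated data in which far fewer genes changed than were called here, so that run does not bear on the calls above. Alternatives were a pseudocount of 0.1, no filter, quantile, median-of-ratios and equal-sum scaling, no trend, a replicate block and leaving out each library. Depth was estimated from the 1-read steps in FPKM of 67 to 83 single-exon genes per library. Coordinates, lengths and overlaps came from GENCODE v44 mapped to GRCh37, and promoters from RefSeq.

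The clock genes and all lists were chosen with earlier results of these data known. The text names the 10 clock genes, SIRT1 and, from the lists, the genes called. A few uncalled genes of the lists (CIART, TEF, HLF, KLF9, RORA, RORB, TSC22D3, KRT7, KRT8, PTPRC) and the overlapping genes were named after their values were seen. A few genes of the lists are not reported here and are not in the counts.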

Additional observations from a re-analysis of the deposited data

How the results depend on the processing

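With 2 libraries per group, moderate differences in genes at these levels lay at the edge of detection, and no library carries a batch or date label. Of the clock genes, 1 was called, 0 without the filter on low values and after scaling to equal FPKM sums, 2 with the replicate block, and 0 to 2 when 1 library was left out. Under quantile normalization and median-of-ratios scaling the count was 1, but the gene was NR1D2 in place of CRY2. CRY2 kept its direction and lost its call without the filter (log2 fold change 0.45, adjusted p = 0.116), under quantile normalization (0.42, 0.0668), median-of-ratios scaling (0.38, 0.0691) and equal sums (0.40, 0.0579). NR1D2 passed under quantile normalization (-0.48, 0.049), median-of-ratios scaling (-0.52, 0.0371) and the replicate block (-0.46, 0.0151). In the fits that leave out 1 library, the lone sample of a group is assumed to vary like the other group. Over them the log2 fold change ran from 0.28 to 0.63 for CRY2, from -0.69 to -0.22 for NR1D2, from -0.11 to 0.04 for PER2, from -0.24 to 0.14 for PER3 and from -0.26 to 0.026 for DBP. The median of the repressor arm ran from -0.11 to 0.14, and the number of genes called, 4521 with all libraries, from 2691 to 4608. Same-numbered libraries deviated together only weakly (r = 0.12 across genes), and with 2 pairs and no stated batch the numbers were not taken to pair the samples. The replicate block called 5393 genes, within 1.5 times of 4521. With the listed letters searched on the strand of the gene alone, the E-box variant was found in 2 members in place of 5 and the D-box in 2 in place of 3. SIRT1, the other clock genes, the activator arm and the PER, CRY and ARNTL to CLOCK shares kept their side of the threshold or moved by less than the spread between libraries. The cause of these changes was not tested. For the 18 called genes of the wider lists, the alternatives were added after seeing the data, and no direction changed.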
